A study of Mus musculus with 4 samples.

Results

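The 45 genes described here are Wnt ligands, the proteins that secrete them, their receptors, the transducers and inhibitors of the signal and its target genes. They were chosen as a list of gene symbols, and all 45 had a row among the 24084 gene rows of the count table. The libraries are RNA sequencing of hair follicle stem cells sorted from skin epidermis of C57BL/6 mice aged 7 to 10 weeks, taken at day 4 after depilation of back skin. Depilation pulls out the hair shafts and starts a new growth phase. Both groups received 15 ng/g diphtheria toxin into the peritoneal cavity. The WT group has 2 libraries, A and C, and keeps its regulatory T cells (Treg). The Foxp3-DTR group has 2 libraries, C and D, and carries the diphtheria toxin receptor (DTR) in cells that express Foxp3, the factor that defines regulatory T cells, and the toxin depletes these cells. The labels do not say how the allele was built, how many animals stand behind a library or whether libraries came from separate animals. The p-values therefore rest on how far these libraries spread, and that spread may be technical.

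Wnt proteins are secreted signals that carry a lipid group added by Porcn, and Wls carries them to the cell surface. They bind Frizzled receptors together with Lrp5 or Lrp6, which stops the complex of Axin and Apc from marking beta-catenin for destruction, and beta-catenin then acts with Lef1 and Tcf7 on target genes. In the hair follicle this pathway is known for driving entry into growth, while resting stem cells make secreted inhibitors. The comparison asks how the expression of these genes in the stem cells differs when regulatory T cells are depleted.

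Gene counts per library ranged from 13911765 to 15923154. Values are library-size normalised counts (CPM), with the level of a gene per kilobase of exon used only to compare genes with each other. Where 2 values are given for a group, WT is in the order A, C and Foxp3-DTR in the order C, D. Of the 10 listed bulge stem cell markers, all were detected, and the stem cell keratin Krt15 ranged from 7255 to 11753 CPM. The groups did not overlap for 6 of these 10 markers, against 45.7% of all genes tested (22% higher and 23.7% lower). Cd34 (1.55-fold) and Itga6 (1.62-fold) were higher in Foxp3-DTR, and Lhx2 (1.84-fold), Nfatc1 (1.35-fold), Krt5 and Sox9 were lower. None of the 6 passed edgeR's adjusted test, in which the lowest adjusted p was 0.0778 for Lhx2. DESeq2 called Cd34, Itga6 and Lhx2 among them, and 7.4% of all its genes. The fibroblast markers Lum, Dpt, Mfap5 and Corin, the T cell markers Cd2, Foxp3 and Cd4 and the endothelial markers Cdh5 and Kdr had 0 counts in all 4 libraries. Foxp3 at 0 counts in sorted epidermal cells does not check the depletion. Xist, the female X-silencing RNA, stood at 861 and 2482 CPM in WT and at 1.86 and 0 CPM in Foxp3-DTR, and 4 Y-linked genes summed to 0 CPM in both WT and to 319 and 259.5 CPM in the Foxp3-DTR libraries. The titles carry the code DEP2 in both WT and DEP3 in both Foxp3-DTR libraries. Group, sex and the meaning of this code cannot be told apart in any difference between the groups.

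To show the stretches on which beta-catenin partners of the Tcf and Lef family are known to act, promoter windows were searched for the core letters CTTTGA and CTTTGT on both strands, which share their first bases. RefSeq (GRCm38.p6) held windows for 26 of the 45 genes, and each window is the 250 bases before a listed transcription start. Matches were found in 7 of 35 windows (20.0%), against 27.6% of all 32851 windows of the same length. The windows printed are those of Wnt5b, the ligand that fell, of the known target genes Sp5 and Axin2, and of the Lef1 start with matches. Each is written 5′ to 3′ in the gene's direction, and capitals mark the matches.
Wnt5b, start A, chr6:119544348-119544597, minus strand: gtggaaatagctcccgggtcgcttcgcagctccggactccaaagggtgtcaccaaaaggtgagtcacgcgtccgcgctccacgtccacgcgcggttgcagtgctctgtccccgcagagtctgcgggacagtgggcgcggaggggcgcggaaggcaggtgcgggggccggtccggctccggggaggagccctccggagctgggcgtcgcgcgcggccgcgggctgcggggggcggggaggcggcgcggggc
Wnt5b, start B, chr6:119467212-119467461, minus strand: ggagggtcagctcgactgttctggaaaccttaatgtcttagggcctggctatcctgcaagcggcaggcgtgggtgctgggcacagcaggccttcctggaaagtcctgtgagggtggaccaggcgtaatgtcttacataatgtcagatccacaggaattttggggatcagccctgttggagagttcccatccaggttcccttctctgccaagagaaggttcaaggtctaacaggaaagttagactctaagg
Wnt5b, start C, chr6:119449387-119449636, minus strand: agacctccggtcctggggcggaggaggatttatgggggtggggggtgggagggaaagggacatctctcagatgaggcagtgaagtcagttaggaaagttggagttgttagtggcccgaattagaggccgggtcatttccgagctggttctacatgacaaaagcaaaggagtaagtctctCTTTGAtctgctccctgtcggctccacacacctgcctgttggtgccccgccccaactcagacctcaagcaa
Sp5, chr2:70474673-70474922, plus strand: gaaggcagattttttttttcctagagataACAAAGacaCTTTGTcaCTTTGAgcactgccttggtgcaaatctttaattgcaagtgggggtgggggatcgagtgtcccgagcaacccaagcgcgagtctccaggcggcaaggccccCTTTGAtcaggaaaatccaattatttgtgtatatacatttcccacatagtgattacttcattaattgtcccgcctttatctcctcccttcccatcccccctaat
Axin2, chr11:108920099-108920348, plus strand: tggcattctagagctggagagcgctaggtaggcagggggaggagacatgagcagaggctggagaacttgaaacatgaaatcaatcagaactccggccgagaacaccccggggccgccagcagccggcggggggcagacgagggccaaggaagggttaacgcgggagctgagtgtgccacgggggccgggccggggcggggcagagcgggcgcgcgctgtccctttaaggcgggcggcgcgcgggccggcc
Lef1, inner start, chr3:131156044-131156293, plus strand: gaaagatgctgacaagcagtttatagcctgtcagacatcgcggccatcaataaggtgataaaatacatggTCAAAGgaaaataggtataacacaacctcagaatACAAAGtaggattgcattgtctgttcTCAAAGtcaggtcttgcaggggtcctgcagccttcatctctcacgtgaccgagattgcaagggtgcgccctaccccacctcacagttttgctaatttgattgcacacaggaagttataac
The Sp5 window held 4 matches and the inner Lef1 window 3, a number reached by 0.776% of all windows. The Wnt5b window at start C held 1 match, 71 bases before the start. The Axin2 window, the other 2 Wnt5b windows and the other 3 Lef1 windows, which are not printed, held 0. Dkk1, a gene with 0 counts in all libraries, also had 3 matches. A match is a description of the letters, and the counts per gene do not say which start was used.

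Of the 45 genes, 38 passed the filter on low counts and were tested. Of these, 2 passed the quasi-likelihood test of edgeR, adjusted by Benjamini-Hochberg over all 12920 genes tested: Porcn rose and Wnt5b fell. In bulk libraries, fewer cells of a type and less RNA per cell cannot be told apart. The 2 calls are 5.26% of the tested members, against 1.25% of all genes tested (0.82% higher and 0.426% lower), and the list was chosen with results known. At an unadjusted p under 0.05 there were 8, against a background of 14.6% (6.76% higher and 7.89% lower). Porcn, Fzd5, Lef1, Kremen1 and Wnt4 were the 5 higher ones, and Wnt5b, Wnt7b and Sfrp1 the 3 lower ones. The median log2 fold change of the tested members was 0.03, with 19 positive and 19 negative, and over all genes it was -0.01. The groups did not overlap for 21 of 38 members, or 55.3%, against 45.7% of all genes tested. In that count 13 members were higher in both Foxp3-DTR libraries (background 22%) and 8 lower (background 23.7%). DESeq2 called 4 members higher and 3 lower, against 7.4% of its genes (3.61% higher and 3.79% lower). With limma-voom 1 was called higher and 0 lower, against 0.72% (0.542% and 0.178%).

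**Figure D1:**
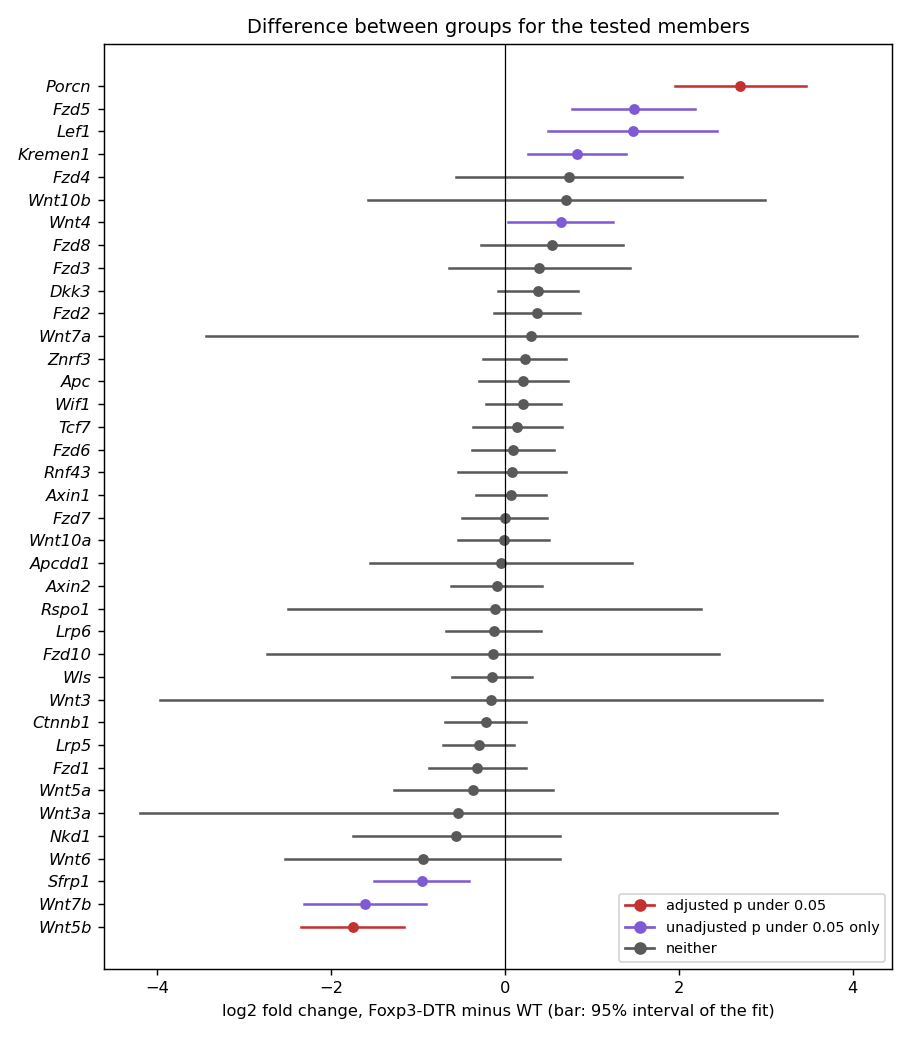
Log2 fold change of the 38 tested members, Foxp3-DTR minus WT (x axis), 1 row per gene, with the 95% interval of edgeR's fit. Porcn at 2.71 and Wnt5b at -1.75 are the genes past the adjusted threshold, and Wnt3, Wnt3a and Wnt7a have the widest bars.

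Markers of other cell types and states were counted in the same libraries. Their counts without overlap are to be read against 22% higher and 23.7% lower of all genes tested. These counts include Cd3e (T cell), Krt25 (inner root sheath) and Mlana (melanocyte), whose few counts did not pass the filter for testing. The 10 fibroblast and dermal papilla markers summed to 63.9 and 81.1 CPM in WT and to 32.4 and 40.2 CPM in Foxp3-DTR, with 4 of 10 at 0 throughout, 3 lower without overlap and 1, Pdgfra, higher. The 7 hair germ and matrix markers, which include Sostdc1, summed to 1023 and 970.0 CPM in WT and to 523 and 539 CPM in Foxp3-DTR, with 4 of 7 lower and 1, Cdh3, higher without overlap. The fall of this sum lay in Sostdc1, and the other 6 markers summed to 366 and 418 CPM in WT and to 453 and 396 CPM in Foxp3-DTR. The 7 sebaceous gland and infundibulum markers summed to 6478 and 2819 CPM in WT and to 1552 and 1589 CPM in Foxp3-DTR, with 3 of 7 lower without overlap. The 7 markers of cycling cells summed to 1444 and 878 CPM in WT and to 176 and 352 CPM in Foxp3-DTR, with all 7 lower without overlap. Sums of the inner root sheath markers were 144 and 119 CPM in WT and 200.1 and 219 CPM in Foxp3-DTR, with 3 of 6 higher and 1 lower without overlap. Melanocyte markers summed to 96.9 and 141 CPM in WT and to 117 and 141 CPM in Foxp3-DTR, most of it Mitf, and 4 of 6 (Pmel, Tyrp1, Kit and Mlana) were higher without overlap. Over the 4 libraries, markers of macrophages and Langerhans cells summed to 3.26 to 24.6 CPM (1 of 7 higher and 1 lower without overlap), those of endothelium to 1.91 to 5.29 CPM (1 of 5 lower) and those of T cells to 0.0615 to 5.56 CPM (1 of 8 lower). The part of these cells and states in the Wnt values was not tested. Antisense or other opposite-strand genes also overlap the exons of Axin2 over 3.8% of their length, of Wnt5a over 4.58%, of Fzd6 over 3.15% and of Wnt11 over 8.8%. For Notum the share is 29.4% with the antisense gene Notumos and 8.72% with the antisense gene Myadml2os.

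Among the 12 ligands, 10 were tested, and in edgeR's test over all genes 1 fell (background 0.426%) and 0 rose (background 0.82%). Wnt4 was the 1 higher at an unadjusted p under 0.05 (background 6.76%), and 2 were lower (background 7.89%). DESeq2 called 0 higher and 2 lower (background 3.61% and 3.79%), and limma-voom 0 of either (background 0.542% and 0.178%). Wnt5b, a ligand best known for signalling that does not run through beta-catenin (mm10 chromosome 6, 119432531 to 119544347), stood at 50.8 CPM in library WT A, 43.5 CPM in library WT C, 12.5 CPM in library Foxp3-DTR C and 15.4 CPM in library Foxp3-DTR D. Both Foxp3-DTR libraries lay below both WT libraries, and the mean fell 3.37-fold from 47.1 ± 5.14 to 13.99 ± 2.06 CPM (SD, n = 2 per group). The log2 fold change was -1.75 ± 0.25 (SE), and the adjusted p from edgeR was 0.0401. This call was close to the threshold: the adjusted p was 0.0547 without WT A, 0.130 without Foxp3-DTR C and 0.0503 with limma-voom. Over the 8 alternatives it ran from 1.64e-06 to 0.130, and the log2 fold change from -1.90 to -1.61.

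Wnt7b, a ligand made by follicle epithelium that acts through beta-catenin (chromosome 15, 85535437 to 85582473), had the highest level per length of the ligands in both WT libraries. It stood at 152 CPM in library WT A, 101 CPM in library WT C, 33.2 CPM in library Foxp3-DTR C and 49.5 CPM in library Foxp3-DTR D. The groups did not overlap, with a log2 fold change of -1.61 ± 0.29 and 0.0587 as the adjusted p from edgeR, short of the threshold. It passed at 0.0321 on leaving out WT C and at 0.0177 on leaving out Foxp3-DTR D. The range over the 8 alternatives was 3.17e-05 (DESeq2) to 0.181. Its exons overlap those of an antisense gene over 6.61% of their length, and reads of the pair cannot be told apart where the counting strand is not given.

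Wnt4, a ligand that can act with or without beta-catenin (chromosome 4, 137277489 to 137299726), stood at 57.7 and 39.7 CPM in WT A and C and at 65.9 and 85.9 CPM in Foxp3-DTR C and D. Both Foxp3-DTR libraries were above both WT libraries by a small margin. The log2 fold change was 0.64 ± 0.25, with an unadjusted p of 0.0413 and an edgeR adjusted p of 0.311. Wnt10a, a beta-catenin ligand of hair and teeth (chromosome 1, 74791516 to 74804179), had 38.7 and 32.1 CPM in WT and 35.8 and 34.2 CPM in Foxp3-DTR. Its groups overlapped, and the 95% interval of its log2 fold change was -0.54 to 0.51.

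These 4 ligands made up between 89.5% and 94.2% of the summed ligand level per length in each library. The sum over the 12 ligands was 86.7 and 63.3 CPM per kilobase in WT A and C, and 44.3 and 56.2 in Foxp3-DTR C and D. The order among the 4 differed between the groups. In WT, Wnt7b took 35.7% and 32.6% of the sum, Wnt5b 22.1% and 25.9%, Wnt10a 18.1% and 20.5%, and Wnt4 15.9% and 15.0%. In Foxp3-DTR C and D, Wnt4 took 35.5% and 36.5%, Wnt10a 32.8% and 24.7%, Wnt7b 15.3% and 18.0%, and Wnt5b 10.7% and 10.4%. Wnt4 thus ranked last of the 4 in both WT libraries and first in both Foxp3-DTR libraries. These shares are a description, and the change in share was not tested.

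**Figure D2:**
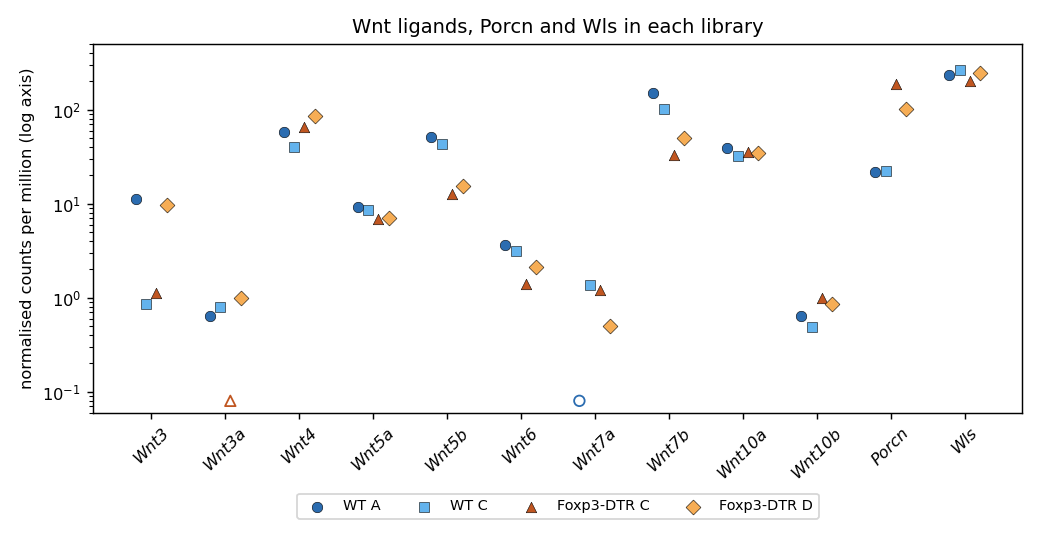
Normalised counts, in CPM (y axis, log scale) of the 10 tested Wnt ligands, Porcn and Wls, 1 point per library. Filled points are values above 0, and open points at the foot mark libraries with 0 counts. The 2 Foxp3-DTR points lie below both WT points for Wnt5b and Wnt7b and above them for Wnt4 and Porcn.

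The remaining ligands were low. Wnt5a, the close relative of Wnt5b, stood at 9.22 and 8.67 CPM in WT A and C and at 6.90 and 7.01 CPM in Foxp3-DTR C and D, with an interval of -1.28 to 0.56 on the log2 scale. Wnt6, whose gene lies next to Wnt10a on chromosome 1, had 52 and 51 counts in WT and 21 and 30 counts in Foxp3-DTR (log2 fold change -0.95 ± 0.66, edgeR adjusted p = 0.605). Both were lower in each Foxp3-DTR library than in either WT library without passing the test. Wnt10b, a beta-catenin ligand, had 9 and 8 counts in WT and 15 and 12 counts in Foxp3-DTR. Wnt3a, the ligand most used to activate beta-catenin in culture, had 9, 13, 0 and 14 counts in WT A, WT C, Foxp3-DTR C and Foxp3-DTR D, and Wnt7a had 0, 22, 18 and 7 counts in the same order. Replicates of 1 group lay as far apart as 0 and 14 counts for Wnt3a and 0 and 22 counts for Wnt7a, and the log2 intervals were -4.20 to 3.13 and -3.44 to 4.05. Wnt11 had 11 and 10 counts in WT and 2 and 2 counts in Foxp3-DTR, and Wnt16 had at most 2 counts in any library. Neither of these passed the filter.

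Wnt3, a beta-catenin ligand (chromosome 11, 103774150 to 103817957), differed between replicates rather than between groups. It stood at 11.3 CPM in library WT A, 0.861 CPM in library WT C, 1.13 CPM in library Foxp3-DTR C and 9.78 CPM in library Foxp3-DTR D. The receptor gene Fzd10 (chromosome 5, 128600844 to 128604093) had the same order of high and low libraries, at 10.6 and 1.29 CPM in WT A and C and at 2.65 and 8.08 CPM in Foxp3-DTR C and D. The 8 interfollicular differentiation markers found in the table, Krt1 and Krt10 among them, summed to 9688, 2137, 1559 and 7540 CPM in WT A, WT C, Foxp3-DTR C and Foxp3-DTR D. This sum too was high in WT A and Foxp3-DTR D and low in the other 2 libraries. Not every marker followed the sum. Calml3 stood at 1414 and 1149 CPM in WT and at 355 and 507 CPM in Foxp3-DTR (edgeR adjusted p = 0.0486). It was the 1 of 8 lower without overlap (background 23.7%), and 0 were higher (background 22%). Among the sebaceous gland and infundibulum markers, Krt79, Scd1, Mgst1 and Awat1 also had WT A and Foxp3-DTR D as their highest libraries. Krt17, Plin2 and Lrig1 did not. The share of table counts in reads that aligned to more than one place was 61.3% and 58.3% in WT A and Foxp3-DTR D, against 51.8% and 53.4% in WT C and Foxp3-DTR C. The part of the markers and of this share in the Wnt3 and Fzd10 values was not tested. Leaving out WT A moved the log2 fold change of Wnt3 from -0.16 to 2.67, and that of Fzd10 from -0.14 to 2.06, with edgeR adjusted p of 0.548 and 0.447, the lowest of the 8 alternatives for each gene. Leaving out Foxp3-DTR C gave 0.69 and 0.45, and leaving out Foxp3-DTR D gave -2.41 and -1.14.

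**Figure D3:**
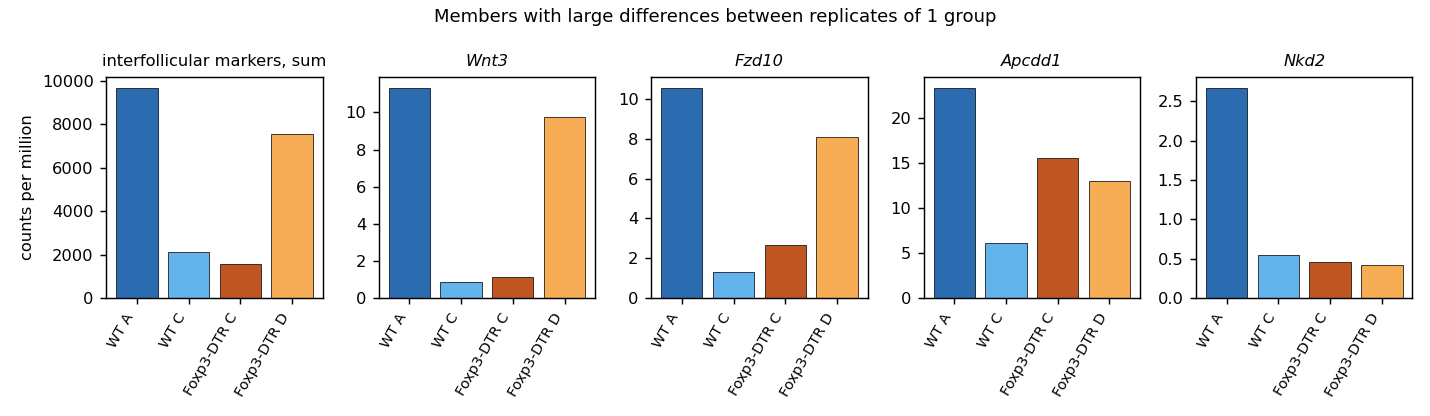
Normalised counts, in CPM (y axis from 0, own scale in each panel) in the 4 libraries for the summed interfollicular markers, Wnt3, Fzd10, Apcdd1 and Nkd2, 1 bar per library. The marker sum, Wnt3 and Fzd10 are high in WT A and Foxp3-DTR D, while Apcdd1 and Nkd2 are highest in WT A.

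Porcn, the enzyme of the endoplasmic reticulum that attaches the lipid Wnt proteins need for release, had the largest positive log2 fold change of the tested members. Its gene lies on the X chromosome (8193848 to 8206525, minus strand). It stood at 21.5 CPM in library WT A, 22.5 CPM in library WT C, 185 CPM in library Foxp3-DTR C and 103 CPM in library Foxp3-DTR D. The mean rose 6.54-fold from 22.0 ± 0.685 to 144 ± 58.6 CPM, and the lower Foxp3-DTR library was still far above both WT libraries. The log2 fold change of 2.71 ± 0.31 had a 95% interval of 1.96 to 3.46 and passed edgeR's test at an adjusted p of 0.0205. The adjusted p was 0.0862 without WT A and 0.0730 without WT C. Over the 8 alternatives it ran from 3.02e-14 to 0.0862, and the log2 fold change from 2.22 to 3.08. Of the 391 X-linked genes tested, 3 passed (0.767%, against 1.25% of all genes) and 1 of them, Porcn, rose (0.256%, against 0.82%). Their median log2 fold change was -0.11.

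Wls, the carrier that takes lipid-bearing Wnt proteins to the surface (chromosome 3, 159839672 to 159938664), was abundant in every library. It stood at 235 and 265 CPM in WT and at 202 and 247 CPM in Foxp3-DTR. The groups overlapped, and the interval of the log2 fold change was -0.62 to 0.31. The lipid-adding enzyme and the carrier thus had different results in the same libraries, and the difference between them was not tested.

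Of the 11 receptors and coreceptors, all were tested and 0 passed edgeR's test over all genes (background 1.25%). At an unadjusted p under 0.05 from edgeR there was 1 (background 14.6%). DESeq2 called 1 (background 7.4%) and limma-voom 0 (background 0.72%). The 9 Frizzled receptors, the surface proteins that bind Wnt, summed to 360.4 and 455 CPM per kilobase in WT A and C and to 474 and 408 in Foxp3-DTR C and D. Fzd7, Fzd2 and Fzd1 together held 87.6% to 89.9% of that sum in every library. Fzd7 (chromosome 1, 59482424 to 59486955) stood at 667 and 786 CPM in WT and at 778 and 672 CPM in Foxp3-DTR. Its log2 fold change had an interval of -0.49 to 0.48. Fzd2 (chromosome 11, 102604396 to 102608058) had 424 and 526 CPM in WT and 654 and 573 CPM in Foxp3-DTR (log2 fold change 0.37 ± 0.21, edgeR adjusted p = 0.502). Per length, Fzd7 was above Fzd2 in both WT libraries and Fzd2 above Fzd7 in both Foxp3-DTR libraries, the latter by less than the spread between replicates. The mean levels in Foxp3-DTR were 167.5 ± 15.6 for Fzd2 and 159.9 ± 16.5 for Fzd7. Fzd1 had 258 and 365 CPM in WT and 275 and 224 CPM in Foxp3-DTR, with overlap.

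Fzd5, a receptor for Wnt signals with and without beta-catenin (chromosome 1, 64730558 to 64737751), had the largest difference of the receptors. It stood at 11.8 CPM in library WT A, 15.7 CPM in library WT C, 44.96 CPM in library Foxp3-DTR C and 31.7 CPM in library Foxp3-DTR D. The groups did not overlap and the means differed 2.80-fold, with a log2 fold change of 1.48 ± 0.30 and 0.0726 as the adjusted p from edgeR. The value became 0.0405 on leaving out Foxp3-DTR D and 0.0219 with no filter on low counts. The 8 alternatives ranged from 0.000857 (DESeq2) to 0.373. Another gene overlaps 17.8% of its exon length on the opposite strand.

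The other Frizzled genes did not pass. Fzd4, also the receptor of norrin, had 40 and 45 counts in WT and 71 and 65 counts in Foxp3-DTR, with no overlap and a log2 fold change of 0.74 ± 0.54. Fzd8 stood at 12.7 and 18.6 CPM in WT and at 27.5 and 18.1 CPM in Foxp3-DTR, with overlap. Fzd6, which acts in the orientation of hair follicles, stood at 100.5 and 127 CPM in WT and at 128 and 114 CPM in Foxp3-DTR, with an interval of -0.38 to 0.56. Fzd3, with Fzd6 a receptor of planar polarity, was low in WT A alone, at 102 CPM against 243 CPM in WT C, 249 CPM in Foxp3-DTR C, and also 203 CPM in Foxp3-DTR D. Lrp5, a coreceptor (chromosome 19, 3584828 to 3686564), stood at 189.6 and 181 CPM in WT and at 154 and 146 CPM in Foxp3-DTR. Its groups did not overlap, and the log2 fold change was -0.30 ± 0.17 at an adjusted p of 0.499 from edgeR. Its partner Lrp6 had 225 and 312 CPM in WT and 269.8 and 221 CPM in Foxp3-DTR, with overlap. Rspo1, a secreted agonist that keeps receptors at the surface, had 23 and 8 counts in WT and 11 and 17 counts in Foxp3-DTR.

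Beta-catenin and the proteins that hold or release it were measured as 5 genes, of which 0 passed edgeR's test (background 1.25%). At an unadjusted p under 0.05 from edgeR there was 1 (background 14.6%). DESeq2 called 1 (background 7.4%) and limma-voom 0 (background 0.72%). Ctnnb1, beta-catenin itself (chromosome 9, 120929216 to 120960507), was among the 3 most abundant members per length in both groups. It stood at 1328 and 1228 CPM in WT and at 1136 and 1051 CPM in Foxp3-DTR, with a log2 fold change of -0.22 ± 0.19 and an interval of -0.69 to 0.24. Its exons overlap the opposite-strand gene Ulk4 over 14.6% of their length. The scaffold Apc stood at 153 and 196 CPM in WT and at 224 and 181 CPM in Foxp3-DTR, with overlap. Axin1, the scaffold that limits the destruction complex, stood at 93.6 and 95.1 CPM in WT and at 102 and 95.9 CPM in Foxp3-DTR, with an interval of -0.34 to 0.47.

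Lef1, a beta-catenin partner that is also a target of the pathway (chromosome 3, 131110471 to 131224356), stood at 4.86 CPM in library WT A, 6.64 CPM in library WT C, 12.2 CPM in library Foxp3-DTR C and 19.8 CPM in library Foxp3-DTR D. The groups did not overlap and the means differed 2.78-fold, with a log2 fold change of 1.47 ± 0.41 and an edgeR adjusted p of 0.145. DESeq2 gave an adjusted p of 0.0334, the lowest of the 8 alternatives, whose highest was 0.598. Tcf7, the partner closest to Lef1, stood at 31.4 and 31.3 CPM in WT and at 36.6 and 32.7 CPM in Foxp3-DTR (log2 fold change 0.14 ± 0.22). Per length, Tcf7 was above Lef1 in every library. An antisense gene overlaps 13.7% of the Lef1 exons.

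**Figure D4:**
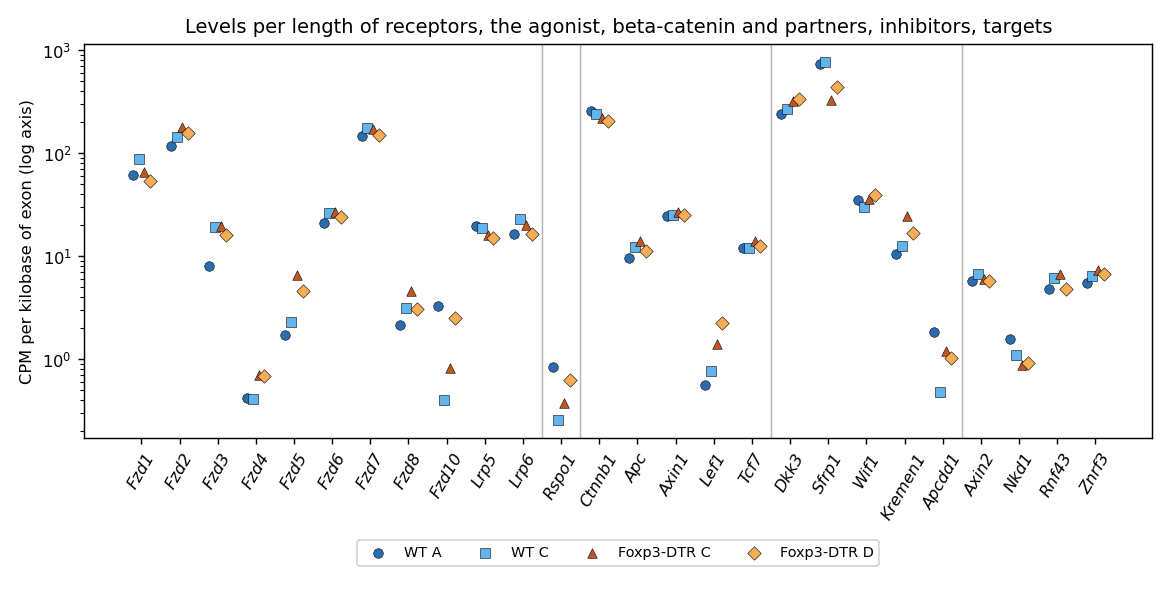
Level per length, in CPM per kilobase of exon (y axis, log scale), of the 26 tested receptors, agonist, transducers, inhibitors and targets, 1 point per library, with grey lines between the roles. Sfrp1, Dkk3 and Ctnnb1 are at the top, and the Sfrp1 points of Foxp3-DTR lie below those of WT.

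Of the 8 inhibitors, 5 were tested and 0 passed edgeR's test (background 1.25%). At an unadjusted p under 0.05 from edgeR there were 2 (background 14.6%). DESeq2 called 1 higher and 1 lower (background 3.61% and 3.79%), and limma-voom 0 (background 0.72%). Sfrp1, a secreted decoy that binds Wnt proteins (chromosome 8, 23411502 to 23449632), had the highest level per length of all 45 genes in both groups. It stood at 3172 CPM in library WT A, 3341 CPM in library WT C, 1431 CPM in library Foxp3-DTR C and 1916 CPM in library Foxp3-DTR D. The groups did not overlap and WT was 1.95-fold higher, with a log2 fold change of -0.96 ± 0.23 and an interval of -1.51 to -0.41. The edgeR adjusted p was 0.102, and the 8 alternatives ranged from 0.000388 (DESeq2) to 0.904. Dkk3, a secreted relative of the Dkk inhibitors with a less settled role in Wnt signalling (chromosome 7, 112116017 to 112159057), was second per length. It stood at 802 and 890.5 CPM in WT and at 1074 and 1122 CPM in Foxp3-DTR (log2 fold change 0.38 ± 0.19, edgeR adjusted p = 0.456). The Sfrp1 level per length was 745 ± 27.2 against 252 ± 18.6 for Dkk3 in WT, and 383 ± 78.4 against 327 ± 9.99 in Foxp3-DTR.

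Kremen1, a receptor that works with Dkk proteins to remove Lrp6 from the surface (chromosome 11, 5191552 to 5261558), stood at 80.3 and 96.7 CPM in WT and at 186 and 128 CPM in Foxp3-DTR. Both Foxp3-DTR libraries were higher, with a log2 fold change of 0.83 ± 0.24 and an edgeR adjusted p of 0.158. The 8 alternatives ranged from 0.0282 (DESeq2) to 0.970. Its partners Dkk1 and Dkk4 had 0 counts throughout, and 3 counts, the most that a count of 0 allows for counting error only, would be up to 0.213 CPM. Wif1, a secreted factor that binds Wnt proteins, stood at 84.2 and 72.9 CPM in WT and at 86.6 and 94.9 CPM in Foxp3-DTR (log2 fold change 0.21 ± 0.18). Notum, an enzyme that strips the lipid from Wnt, had 7, 9, 6 and 2 counts in WT A, WT C, Foxp3-DTR C and Foxp3-DTR D. Apcdd1, a membrane inhibitor, stood at 23.4 and 6.15 CPM in WT and at 15.5 and 13.0 CPM in Foxp3-DTR, so that the replicates of WT lay further apart than the groups. Its log2 fold change of -0.05 moved to 1.23 without WT A and to -0.71 without WT C.

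The genes most used as readouts of beta-catenin activity did not pass. Of the 6 targets and feedback genes, 4 were tested. In edgeR's test 0 passed (background 1.25%) and 0 had an unadjusted p under 0.05 (background 14.6%). DESeq2 and limma-voom also called 0 (background 7.4% and 0.72%). Axin2, the feedback scaffold that is the standard reporter of the pathway (chromosome 11, 108920349 to 108950783), stood at 31.7 and 36.6 CPM in WT and at 32.6 and 31.3 CPM in Foxp3-DTR. The groups overlapped, and the interval of its log2 fold change was -0.62 to 0.43. Rnf43, a ligase that removes Frizzled receptors, had 31.2 and 40.0 CPM in WT and 43.6 and 31.6 CPM in Foxp3-DTR, with an interval of -0.55 to 0.70. Its partner Znrf3, next to Kremen1 on chromosome 11, had 43.5 and 50.9 CPM in WT and 58.2 and 52.3 CPM in Foxp3-DTR, with an interval of -0.25 to 0.70. Nkd1, a feedback inhibitor, had 101 and 80 counts in WT and 60 and 59 counts in Foxp3-DTR, and its groups did not overlap (log2 fold change -0.56 ± 0.50). Nkd2 had 38 counts in WT A and 6 to 9 counts in the other libraries. Sp5, a transcription factor with 4 core matches in its printed window, had 1 count in Foxp3-DTR D and 0 counts elsewhere.

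A second list held 92 further genes of the pathway, of which 70 were tested. In edgeR's test 1 rose and 2 fell over all genes, or 4.29% against 1.25% of all genes tested (0.82% higher and 0.426% lower). This list too was chosen with results known, and its median log2 fold change was -0.05. Myc, a growth regulator counted among the targets of beta-catenin and of many other signals, stood at 52.5 and 64.7 CPM in WT and at 251 and 173 CPM in Foxp3-DTR. Its log2 fold change was 1.86 ± 0.24 (edgeR adjusted p = 0.0323, and 0.0512 without Foxp3-DTR C, the highest of the 8 alternatives). Sox4, a transcription factor, fell from 47.2 and 46.7 CPM to 7.29 and 13.0 CPM, and the log2 fold change was -2.21 ± 0.33 (edgeR adjusted p = 0.0427, and 0.0844 without Foxp3-DTR C, the highest of the 8). Sostdc1, a secreted inhibitor of Wnt coreceptors, fell from 657 and 552 CPM to 70.6 and 143 CPM, at an adjusted p of 0.0441 from edgeR. The value became 0.193 without WT A and 0.103 without WT C, in a range of 1.18e-11 to 0.193 over the 8 alternatives, and its log2 fold change of -2.50 moved to -3.09 without Foxp3-DTR D.

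DESeq2 gave 72 genes of this list an adjusted p. It called 1 higher, Myc, and 8 lower: Sostdc1, Sox4, Tle3, Ccnd1, Ror1, Lgr4, Shisa2 and Daam1. Over all its genes it called 3.61% higher and 3.79% lower. Of the 70 genes tested by edgeR, 2 were higher and 10 lower at an unadjusted p under 0.05 (background 6.76% and 7.89%). The groups did not overlap for 12 higher and 22 lower, or 48.6%, against 45.7% of all genes tested (22% higher and 23.7% lower).

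The other genes of that list named here did not pass edgeR's test. The corepressor Tle3 stood at 137 and 119 CPM in WT and at 64.6 and 59.8 CPM in Foxp3-DTR (log2 fold change -1.04 ± 0.18, edgeR adjusted p = 0.0543). It passed in 3 of 8 alternatives, which ranged from 0.000206 (DESeq2) to 0.253 and included leaving out WT C (0.0406). Ccnd1, a cyclin of the cell cycle start and a textbook target, stood at 487 and 357 CPM in WT and at 82.4 and 192 CPM in Foxp3-DTR (log2 fold change -1.62 ± 0.43, edgeR adjusted p = 0.157). It passed in 2 of 8 alternatives, which ranged from 0.000634 (DESeq2) to 0.534, and leaving out Foxp3-DTR D gave -2.35 at an adjusted p of 0.00642. The part of the markers of cycling cells, lower in both Foxp3-DTR libraries, in the values of Ccnd1, Myc and Sox4 was not tested. Celsr2, a cadherin of planar polarity, stood at 122 and 119.8 CPM in WT and at 210.5 and 152 CPM in Foxp3-DTR (0.58 ± 0.21, edgeR adjusted p = 0.265). Lrp4, a receptor that binds Sostdc1, had 56.4 and 72.9 CPM in WT and 97.7 and 82.3 CPM in Foxp3-DTR (0.48 ± 0.21, edgeR adjusted p = 0.371). The groups did not overlap for either gene. Lgr5, the R-spondin receptor that marks follicle stem cells, stood at 352 and 539 CPM in WT and at 440.1 and 369.9 CPM in Foxp3-DTR, with an interval of -0.75 to 0.47. Tcf7l1, a repressor that shares the binding letters of Lef1, had 40.1 and 47.9 CPM in WT and 57.2 and 44.9 CPM in Foxp3-DTR, with an interval of -0.32 to 0.75.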

How the data were processed

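RNA was measured in 4 libraries made with a stranded mRNA kit, per the labels' protocols. The authors deposited a table of raw read counts by gene symbol, not normalised. Per the submitters' processing notes, tools included TopHat2 2.0.12, Bowtie2 2.1.0.0 and HTSeq 0.6.1, with build mm10. Sources used here name neither the annotation nor the counting strand. The table also had 5 rows that name no gene, with 62.0% to 70.1% of a library's counts, left out of sizes and tests.

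The groups were compared by edgeR 4.0.16 under R 4.3.3 (TMM, filterByExpr, robust glmQLFit and glmQLFTest), adjusting over 12920 genes at a threshold of 0.05. Standard errors and 95% intervals come from the quasi-likelihood F statistic. Alternatives were DESeq2 1.42.0, limma-voom (limma 3.58.1), DESeq2-style size factors, no filter, and leaving out each library. The procedure was tested on simulated counts. Positions and exon lengths are from GENCODE M21 (GRCm38), by symbol, for 95.5% of tested genes. A count of 0 allows 3 counts.

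The members and lists were chosen with earlier results of these data known. By a rule set with them, every tested member is given in each library, along with the other pathway genes past the threshold or with up to 3 smallest p in each direction, and Lgr5, Tcf7l1, Ccnd1 and Myc.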

Additional observations from a re-analysis of the deposited data

How the results depend on the processing

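The values of 47 single genes under 8 alternatives make 376: in 321 the direction and the side of the threshold held, in 9 a call was lost, in 15 a call was gained and in 31 the sign changed, over 14 genes. A call could be lost only for the 5 genes called in the main fit, so all 9 losses lay among their values. Most of the 321 values that held were of genes not called in the main fit. No called gene (of 5) changed sign, and the largest log2 fold change among those that did was 0.54 in size.

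Members past the threshold numbered 1 higher and 1 lower. With DESeq2 they were 4 (Fzd5, Kremen1, Lef1 and Porcn) and 3 (Sfrp1, Wnt5b and Wnt7b), with no filter on low counts 2 and 2, and with limma-voom 1 and 0. Leaving out 1 library gave 0 to 2 higher (0 without WT A or WT C) and 0 to 2 lower (0 without WT A or Foxp3-DTR C). Of the other pathway genes, 1 was higher and 2 lower, which became 0 to 1 and 1 to 3 on leaving out a library. The lower ones were 8 with DESeq2 and 3 with no filter. Over all genes, 106 higher and 55 lower became 489 and 514 (DESeq2), 70 and 23 (limma-voom), 277 and 252 (no filter), and, on leaving out a library, 132 and 42 (WT A), 190 and 160 (WT C), 66 and 14 (Foxp3-DTR C) or 203 and 220 (Foxp3-DTR D). The causes were not tested, apart from fewer samples and other filters being part of those settings.

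Signs changed with limma-voom for Wnt3 (log2 fold change 0.15), Fzd10 (0.38), Rspo1 (0.097) and Apcdd1 (0.30), and with no filter for Wnt10a (0.00062). For Fzd7 the values were 0.0069 with DESeq2, 0.0064 with its size factors and 0.012 with no filter. On leaving out 1 library the log2 fold changes ran from -2.41 to 2.67 for Wnt3, -6.46 to 0.47 for Wnt3a, -0.66 to 6.63 for Wnt7a, -0.14 to 0.14 for Wnt10a, -0.089 to 1.16 for Fzd3, -0.055 to 0.27 for Fzd6, -0.11 to 0.12 for Fzd7, -1.14 to 2.06 for Fzd10, -0.33 to 0.13 for Lrp6, -0.74 to 0.98 for Rspo1, -0.71 to 1.23 for Apcdd1, -0.18 to 0.017 for Axin2, -0.17 to 0.30 for Rnf43 and -0.40 to 0.21 for Lgr5. The cause was not tested.

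No paired analysis was possible because the groups share only the letter C. With 2 libraries a group, and with 1 left out the lone library assumed to vary like the other group, the fit resolves mainly large changes. Genes under about 20 counts have intervals of several log2 units.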

Other observations

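Porcn lies 599 kb from Foxp3 on the X chromosome. After its value was seen, the 29 other tested genes within 1 Mb of Porcn were listed. Their median log2 fold change was 0.17, with 19 positive and 10 negative, a range of -1.41 (Praf2) to 1.13 (Ebp). The lowest adjusted p among them from edgeR was 0.118. The 4 nearest tested genes, Ebp, Tbc1d25, Ftsj1 and Rbm3, were higher in both Foxp3-DTR libraries than in either WT library. The same held for 11 of the 29 (37.9%, against 22% of all genes tested), and 2 (6.90%, against 23.7%), Praf2 and Suv39h1, were lower in both. Ebp, a sterol isomerase whose gene starts 335 bases beyond the 3′ end of Porcn, stood at 79.6 and 45.5 CPM in WT and at 131 and 142 CPM in Foxp3-DTR (log2 fold change 1.13 ± 0.28, edgeR adjusted p = 0.118). Tbc1d25 stood at 20.9 and 23.3 CPM in WT and at 40.7 and 39.1 CPM in Foxp3-DTR (0.85 ± 0.22, edgeR adjusted p = 0.127).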
